A study of Macaca fascicularis with 86 samples.

Results

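Collagens are secreted proteins of the extracellular matrix, each built from 3 chains wound into a triple helix. Every row of the deposited expression table whose symbol has the form COL, number, A, number was taken as a collagen gene, which gave 41 of 17023 genes. They were grouped by the kind of matrix their proteins form, with COL2A1 and COL11A1, which also make fibrils, placed in the cartilage-type group: 8 fibrillar, 9 of the basement membrane and its anchors, 6 cartilage-type and 18 other. Of the 41 genes, 39 had at least 1 TPM (the authors' length-scaled share of all transcripts in a library) in at least 10 of 86 regions and were tested with 15216 genes in all. RefSeq lists 43 protein-coding symbols of this form for the species, and the other 2 were not analysed here, so sums over collagens cover 41 genes. COL4A4 and COL6A5 were below that level and were described but not tested.

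The regions were laser-captured from cryosections of gastrulating crab-eating macaque (Macaca fascicularis) embryos, and polyadenylated RNA of 5 to 50 cells per region was sequenced by Geo-seq, a spatial transcriptome method for small samples. There were 2 embryos at E18, the first with 15 regions in 4 sections and the second with 35 regions in 6 sections, and a single E20 embryo with 36 regions in 7 sections. No treatment or genotype is named, so the groups differ by stage and embryo, and regions are named by embryo, section and sector. The labels give neither the germ layer of a region nor the end from which sections and sectors are numbered.

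Fibril-forming collagens such as types I, III and V assemble into the cables of loose connective tissue, and in early primate embryos the extraembryonic mesenchyme is a known site of such matrix. Type IV collagen forms the sheet-like network of basement membranes under epithelia, and type VI forms beaded microfibrils around mesenchymal cells. Types II, IX, X and XI are best known from cartilage, which does not exist at gastrulation, although their genes can be transcribed in epithelia and notochord earlier. New chains are hydroxylated and folded in the endoplasmic reticulum, trimmed outside the cell and crosslinked by lysyl oxidases.

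Facts that bear on all values are these. Between 6194 and 13958 genes per region had at least 1 TPM, with embryo medians of 10564, 12186 and 9051 (E18 embryo 1, E18 embryo 2, E20), and with section medians from 7976 to 9763 in E20 sections 1 to 5 against 10574 and 10512 in sections 6 and 7. Mitochondrially encoded genes held a median of 15.7%, 29.4% and 17.5% of the summed TPM, with highest values of 40.6%, 48.8% and 28.8%. None of 3655 pairs of regions had identical values. E20 sections 1 to 5 stood apart from sections 6 and 7: the summed TPM of 11 yolk sac endoderm markers (serum proteins such as APOA1 and TTR) had section medians from 6583 to 58739 in the former and 17.99 and 22.3 in the latter. The 10 epiblast markers (SOX2 and NANOG among them) had section medians from 83.0 to 198 in E20 sections 1 to 5 against 733 and 925 in sections 6 and 7, and from 460 to 1049 in the E18 sections. In bulk regions, fewer cells of a type and less RNA per cell cannot be told apart.

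COL3A1, the type III chain, was the most abundant collagen, with a mean of 460 TPM over the 86 regions. COL1A2 (134), COL6A2 (111), COL1A1 (68.9) and COL9A2 (65.2) followed on the same length-scaled measure, and 7 more genes had a mean of at least 20 TPM: COL6A1, COL18A1, COL5A2, COL4A2, COL6A3, COL26A1 and COL4A1. Collagens together held a median per region of 0.0571% and 0.0735% of the summed TPM in the first and second E18 embryo and of 0.117% at E20, and up to 1.15% in a single region of E18 embryo 2. The make-up of that collagen differed more than its amount. Fibrillar genes supplied a median of 14.1% of collagen TPM per region in E18 embryo 1 (lowest 3.13%, highest 79.9%) and 16.5% in E18 embryo 2 (4.84% to 68.1%). The median in the E20 embryo was 84.2% (4.22% to 93.7%), with section medians from 83.1% to 87.3% in sections 1 to 5 and of 40.3% and 43.7% in sections 6 and 7.

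**Figure D1:**
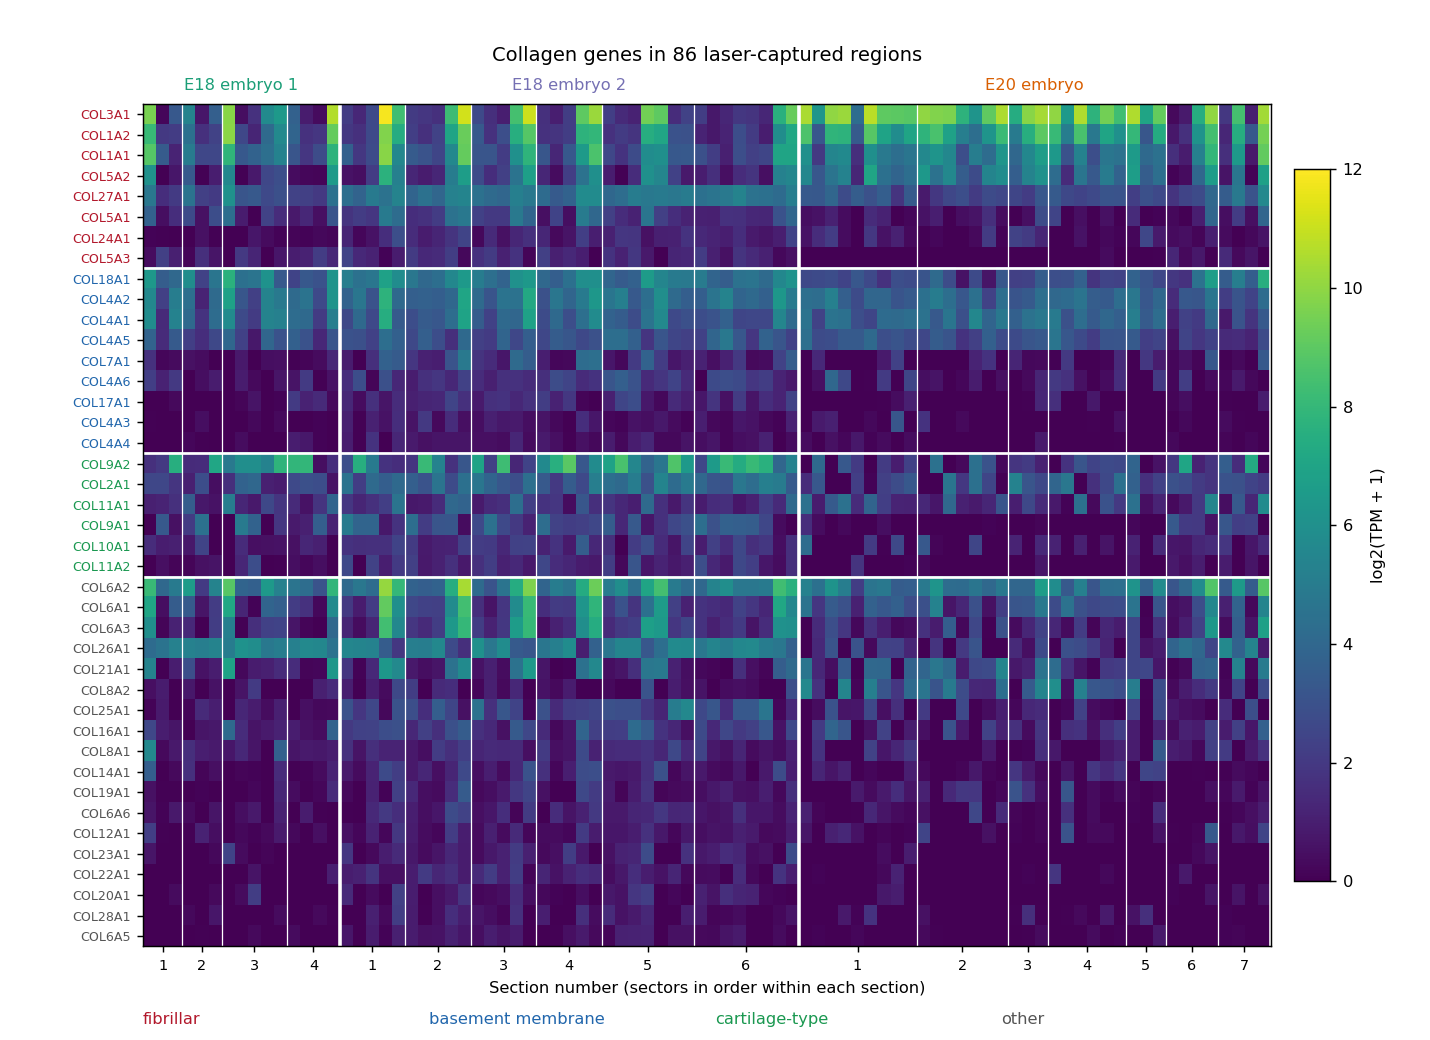
Heat map of log2(TPM + 1) for 41 collagen genes (rows, coloured and ruled off by class, ordered by mean TPM) in 86 regions (columns, by embryo, section and sector). COL3A1 and its fibrillar partners are bright in a few sectors per section in the E18 embryos and in most sectors of E20 sections 1 to 5, while COL26A1, COL9A1 and COL27A1 follow other patterns.

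COL3A1 was split sharply between sectors in E18 embryo 2 and less cleanly in E18 embryo 1. COL3A1 ranged from 0.142 to 1586 TPM in E18 embryo 1 (median 11.3) and from 0.708 to 3631 TPM in E18 embryo 2 (median 3.47). In the latter, 12 regions lay at 198 TPM or more and the other 23 at 5.27 TPM or less, with nothing between. The 12 were 2 neighbouring sectors in each of its 6 sections: section 1 read 3.39, 1.52, 5.27, 3631 and 320 TPM of COL3A1 in sectors 1 to 5, and section 4 read 2.16, 1.01, 3.47, 518 and 1177. COL3A1 reached 100 TPM in 3 regions of E18 embryo 1, which were sector 1 of sections 1 and 3 (770 and 926 TPM) and sector 4 of section 4 (1586 TPM). Those 3 sectors were the first or the last of their sections, and the highest value of section 2 was 40.04 TPM. In that embryo 8 of 15 regions reached 10 TPM, and the highest value below 100 was 85.2 TPM, in section 3.

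The regions that were highest in COL3A1 were high in its usual partners as well. In sector 4 of section 1 of E18 embryo 2, COL1A1 read 931 TPM, COL1A2 854, COL5A2 207, COL6A1 563, COL6A2 1086 and COL6A3 330. Sector 4 of section 7 was the E20 region with the most COL1A1 (557 TPM), COL1A2 (724), COL6A2 (473) and COL6A3 (113), at 1309 TPM of COL3A1. The E20 region with the most COL3A1 (1735 TPM) was sector 6 of section 1. That region was high in COL1A2 (465 TPM) and COL5A2 (130 TPM, the most of any E20 region). By contrast, it read only 62.4 TPM of COL1A1, 23.5 of COL6A2 and 2.30 of COL6A3.

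COL3A1 was spread over most of the E20 embryo: 28 of 36 regions reached 100 TPM, the median was 524 TPM and the lowest and highest were 0.222 and 1735. Section medians were 511, 794, 927, 506 and 571 TPM in sections 1 to 5 and 88.7 and 176 in sections 6 and 7. The last 2 medians hide a wide split among 4 regions per section. Section 6 had highest values of 1032 and 177 TPM and a lowest of 0.222, and section 7 had 1309, 348 and 0.983. COL1A2, the other chain of type I, had a median of 4.94 TPM (1.36 to 957) and 5.18 TPM (0.685 to 854) in the first and second E18 embryo and 125 TPM at E20 (0.728 to 724). COL5A2, a chain of the type V collagen that starts type I fibrils, had medians of 0.753, 2.51 and 20.2 TPM in the same order. The ranges of the embryos overlapped for each of these genes, because single E18 regions were as high as any at E20. COL1A1 had medians of 9.85, 8.16 and 30.3 TPM. COL27A1, a fibrillar collagen best known from cartilage, had medians of 5.18, 22.4 and 6.07 TPM and was at or above 9.61 TPM throughout E18 embryo 2. COL5A1, the main partner of COL5A2, had medians of 1.84, 3.02 and 0.413 TPM. COL5A3 and COL24A1 were low, with highest values of 4.56 and 6.35 TPM.

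**Figure D2:**
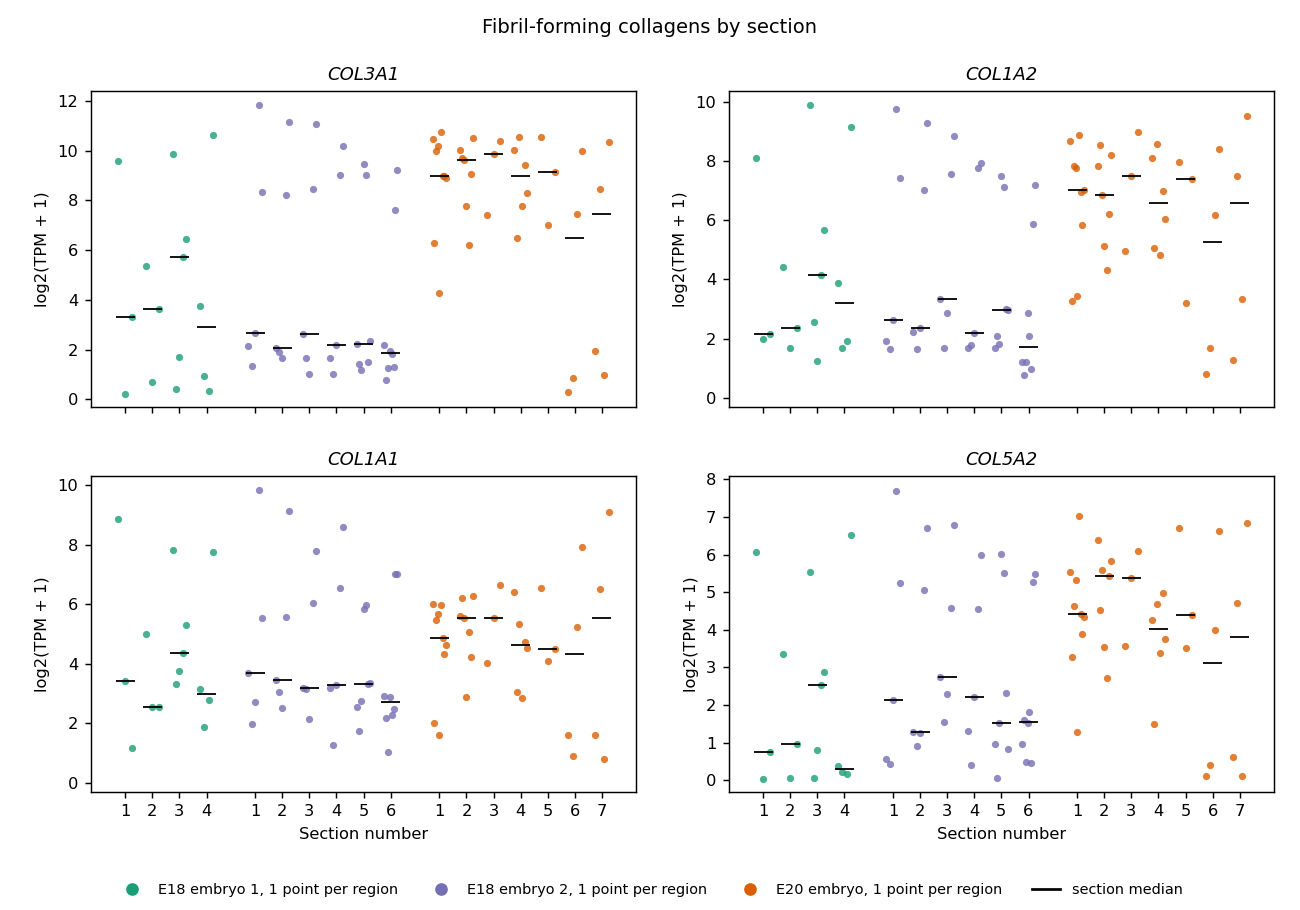
log2(TPM + 1) of COL3A1, COL1A2, COL1A1 and COL5A2 in each region (points, sectors in order within a section) by section number, with the section median as a line. In E18 embryo 2 all sections show 2 high regions of COL3A1 over a low remainder, whereas E20 sections 1 to 5 have medians of 506 TPM or more.

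Mean log2 values per embryo were compared between the E20 embryo and the 2 E18 embryos with limma, whose moderated test borrows the spread from all genes. The design has 1 residual degree of freedom and a single E20 embryo, so stage cannot be told apart from what is particular to that embryo and its sections. By this test 6 of 39 collagens changed (adjusted p under 0.05), 3 higher and 3 lower, where 11.4% of all genes tested did (2.64% higher, 8.75% lower). COL3A1 was higher at E20 by 3.76 ± 0.42 on the log2(TPM + 1) scale (SE, adjusted p = 5.69e-16), COL1A2 by 2.22 ± 0.44 (3.01e-05) and COL5A2 by 1.73 ± 0.61 (0.0406). Against each E18 embryo by itself, the difference was 3.86 and 3.65 for COL3A1, 2.19 and 2.25 for COL1A2, and 2.13 and 1.33 for COL5A2. All 3 genes called higher are fibrillar, from a class of 8, while COL1A1 did not pass. Those that fell were COL26A1 by -2.96 ± 0.50 (adjusted p = 3.73e-07), COL9A2 by -2.90 ± 0.49 (4.42e-07) and COL18A1 by -1.69 ± 0.48 (0.0067). The median over the 39 collagens was -0.43, close to the median of all genes (-0.44). The 3 to 3 split became 4 higher and 2 lower after quantile normalization, which moved the median of all genes by 0.38 with COL18A1 then short of the threshold (-1.24, adjusted p = 0.1005). The COL5A2 call was lost with no filter on low values (adjusted p = 0.06346), with means of section means (0.06918) and with mitochondrially encoded genes removed (0.3766), which moved the median of all genes by -0.12.

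The stage calls rested on E20 sections 1 to 5. With these sections alone the E20 embryo differed from the E18 pair by 4.61 for COL3A1, 2.51 for COL8A2 and -2.13 for COL9A1. With sections 6 and 7 alone none of the 39 was called by limma, and 6 genes of all tested were. COL3A1 then differed by 0.77, COL1A2 by 0.81, COL26A1 by -1.06 and COL9A2 by -1.87. When each embryo was summarised by the median of its regions, the test called 0 genes of any kind, although the COL3A1 difference was 6.14. Markers of other cell types moved between the same sections. Section medians of the summed TPM in E20 sections 1 to 5 against sections 6 and 7 were 695 to 1203 against 131 and 201 for 11 mesenchyme markers, 178 to 792 against 10.9 and 15.1 for 5 trophoblast markers, and 258 to 484 against 48.02 and 64.9 for 8 endothelium markers. For 7 maternal decidua and immune markers they were 27.1 to 70.3 against 5.40 and 8.45, and for 10 amnion markers 8.05 to 17.6 against 127 and 141. The E18 section medians were 12.2 to 91.2 for the trophoblast, 44.9 to 164 for the endothelium and 5.76 to 62.4 for the maternal list, and no tabulated gene of these 3 lists was at 0 in every region of an embryo. The part of these markers, and of the yolk sac endoderm and epiblast markers above, in the stage differences was not tested.

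Ratios between chains differed between embryos too. Over regions in which both transcripts reached 1 TPM, the ratio of COL3A1 to COL1A1 had a median of 2.27 in 10 regions of E18 embryo 1 (0.180 to 7.39), 0.678 in 34 regions of E18 embryo 2 (0.204 to 12.4) and 18.2 in 33 regions at E20 (1.40 to 38.1). Most E18 regions were poor in COL3A1, with 12 of 15 and 23 of 35 below 100 TPM, against 8 of 36 at E20. The highest ratio per section of E18 embryo 2 ran from 4.57 to 12.4. COL1A1 and COL1A2 belong to 1 trimer, and their ratio had medians of 1.19, 1.09 and 0.242. It was above 1 in 10 of 15, 19 of 33 and 3 of 33 regions. The ratio of COL5A1 to COL5A2 had medians of 0.354, 0.610 and 0.0636 in 6, 23 and 12 regions. In 2 of these ratios, E20 sections 1 to 5 stood apart from sections 6 and 7. COL3A1 to COL1A1 had section medians from 13.3 to 23.4 in sections 1 to 5 against 4.51 and 2.35. For COL1A1 to COL1A2 they were from 0.211 to 0.371 against 0.618 and 0.769. Sections 6 and 7 hold only 2 and 3 such regions. COL1A1 and COL1A2 nonetheless varied together, with Pearson's r of 0.92, 0.94 and 0.89 across the regions of an embryo on the log2 scale.

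**Figure D3:**
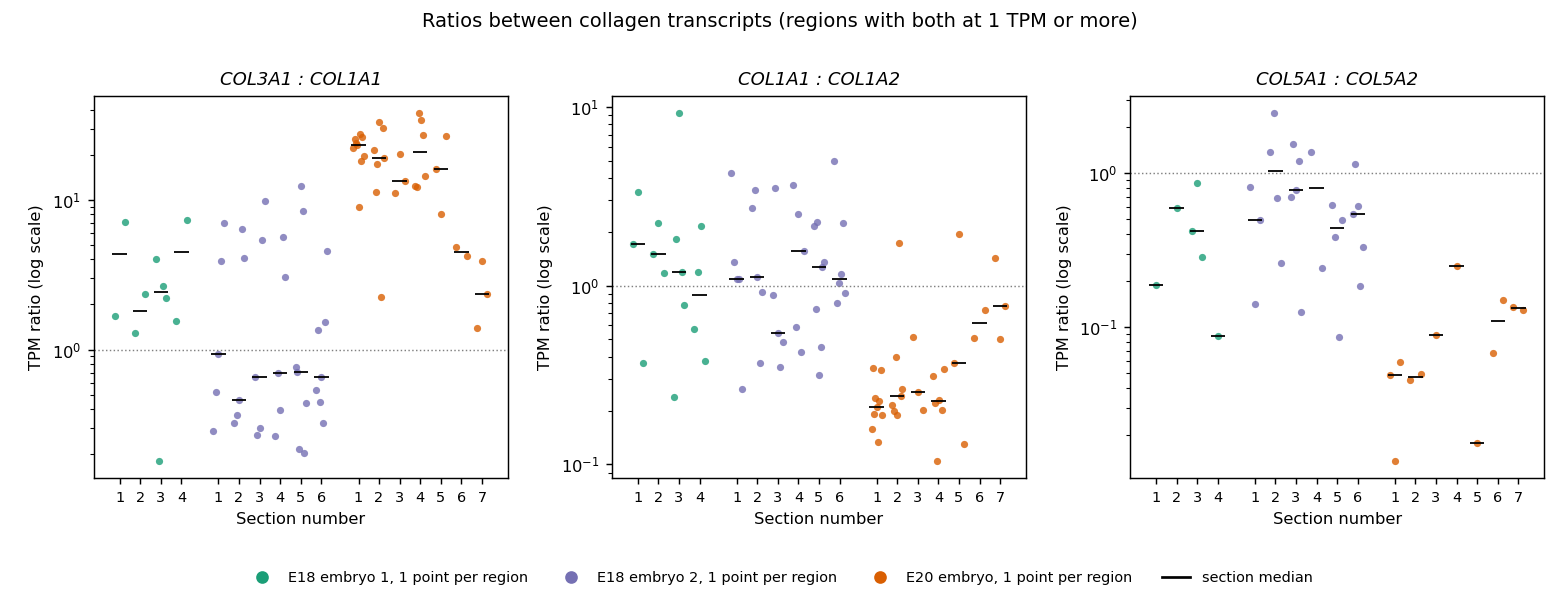
Ratios of TPM values for 3 pairs of collagen genes in each region with both at 1 TPM or more (points; log axis), by section number, with the section median as a line and a dotted line at a ratio of 1. Section medians of E20 sections 1 to 5 lie from 13.3 to 23.4 for COL3A1 to COL1A1 and from 0.211 to 0.371 for COL1A1 to COL1A2.

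Basement membrane collagens were more even. COL4A1 and COL4A2, neighbouring genes whose chains form the common type IV trimer, were above 1 TPM in nearly all regions. COL4A1 had medians of 17.6 TPM (1.70 to 55.8), 10.1 (4.04 to 179) and 14.4 (0.765 to 46.6) in the order used above. COL4A2 had medians of 19.6 (1.32 to 115), 16.9 (6.83 to 214) and 14.6 TPM (1.77 to 36.4). Neither passed the stage test, and their ratio had medians of 0.855 (0.444 to 1.76), 0.611 (0.292 to 1.20) and 1.10 (0.229 to 3.26). COL4A1 exceeded COL4A2 in 7 of 15, 2 of 35 and 19 of 35 regions. COL4A5, a chain of more specialised basement membranes, had medians of 7.06, 7.04 and 5.76 TPM, and its partner COL4A6 0.560, 2.24 and 0.299. COL4A3 and COL4A4 did not exceed 8.37 and 2.36 TPM anywhere. COL17A1, a transmembrane collagen of epithelial anchoring plaques, did not exceed 6.21 TPM, and COL7A1, the anchoring fibril chain, reached 27.7 TPM in E18 embryo 2.

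COL18A1, the basement membrane collagen from which endostatin is cleaved, was the member of its class with the clearest map. It read a median of 20.3 TPM (4.16 to 199) and 26.1 TPM (10.04 to 114) in the E18 embryos and 6.06 TPM at E20 (0.482 to 182). In E20 sections 1 to 5 COL18A1 reached at most 16.99 TPM, but it read 102 and 182 TPM in sector 4 of sections 6 and 7. Those are also the sectors with the most COL3A1 in their sections. In each section of E18 embryo 2, the 2 highest COL18A1 regions were the 2 highest COL3A1 regions.

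The type VI genes were high in the same few E18 sectors as COL3A1, and differed among themselves at E20. COL6A3 had medians of 1.62, 3.01 and 1.41 TPM in the 3 embryos, with highest values of 59.6, 330 and 113. COL6A1 had medians of 3.39, 3.77 and 6.71 TPM (highest 141, 563 and 46.4) and COL6A2 of 28.8, 29.2 and 22.2 TPM (highest 465, 1379 and 473). In E20 sections 1 to 5, where COL3A1 was high in most regions, the highest COL6A3 value was 11.03 TPM, while COL6A1 reached 38.7 and COL6A2 102 TPM. On the mesenchyme score described below, the E20 slopes of COL6A1, COL6A2 and COL6A3 were 1.73, 1.86 and 1.81. The stage difference of these 3 genes did not pass the test. COL21A1, a collagen that decorates other fibrils, had medians of 0.933, 1.07 and 4.82 TPM and reached 121 TPM in E18 embryo 1.

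COL8A2, a short-chain collagen known from vessel walls and the cornea, was the opposite case. No E18 region exceeded 7.47 TPM of COL8A2. E20 sections 1 to 5 had medians from 6.17 to 9.46 TPM and single regions up to 59.9, and the highest value in sections 6 and 7 was 5.71. The remaining genes of the class were low: COL12A1, COL14A1, COL16A1, COL19A1, COL20A1, COL22A1, COL23A1, COL28A1, COL6A5 and COL6A6 had medians under 4 TPM in each embryo, and COL10A1 of the cartilage-type class under 3. COL8A1 was low except for 48.2 TPM in sector 1 of section 1 of E18 embryo 1. COL25A1, a transmembrane collagen of neurons, had a median of 4.92 TPM in E18 embryo 2 (up to 46.9) against 0.303 and 0.359 in the others.

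Cartilage-type genes did not move as a group. COL2A1, the type II chain, was at or above 2.99 TPM in all regions of E18 embryo 2, with a median of 16.004 TPM and a highest value of 41.4, against medians of 4.79 in E18 embryo 1 and 4.52 at E20. COL11A1 had medians of only 1.66, 2.09 and 1.60 TPM but rose to 32.6, 23.7 and 54.5 TPM, the last in sector 4 of E20 section 7. COL9A1 and COL9A2 encode chains of the same type IX molecule, which sits on type II fibrils, and differed widely in level and place. COL11A2, a partner of COL11A1, did not exceed 8.01 TPM. COL9A2 had medians of 39.5, 44.2 and 2.70 TPM and reached 247, 488 and 159 TPM. COL9A1 had medians of 1.20, 5.23 and 0 TPM, with at most 29.2 TPM. In E20 sections 1 to 5 the highest COL9A1 value in 28 regions was 1.93 TPM.

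COL9A2 was patchy and highest in the later E18 sections. Its section medians in E18 embryo 2 were 6.48, 8.14, 4.38, 53.5, 88.6 and 130 TPM from section 1 to 6, and in E18 embryo 1 they were 3.03, 1.86, 59.6 and 121. Only 1 region in each of E20 sections 6 and 7 was high (133 TPM in sector 2 and 159 in sector 3), and the next highest E20 region read 21.2 TPM. Across the regions of an embryo, log2 COL9A2 correlated with the mean log2 level of 7 primitive streak markers (TBXT, MIXL1 and others). Pearson's r was 0.81, 0.79 and 0.61 in 15, 35 and 36 regions. With the mean log2 level of 6 node and notochord markers r was 0.61, 0.62 and 0.62, and with that of the yolk sac endoderm markers 0.68, 0.44 and -0.21. The primitive streak relation was picked from all pairs of tested collagens and 10 marker lists after its values were seen, and the regions of an embryo share sections and processing.

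COL26A1, a secreted collagen whose protein carries an EMI domain, ran against the fibrillar genes. It read between 17.04 and 68.6 TPM in all regions of E18 embryo 1 (median 36.4). In section 1 of E18 embryo 2 it read 44.3, 41.2, 38.5, 10.1 and 2.88 TPM in sectors 1 to 5, the last pair being those with COL3A1 at 3631 and 320. COL26A1 read at most 7.77 TPM in E20 sections 1 to 5, and had medians of 14.3 and 26.4 TPM in sections 6 and 7, where sector 4 was again the lowest (4.71 and 0.825 TPM).

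**Figure D4:**
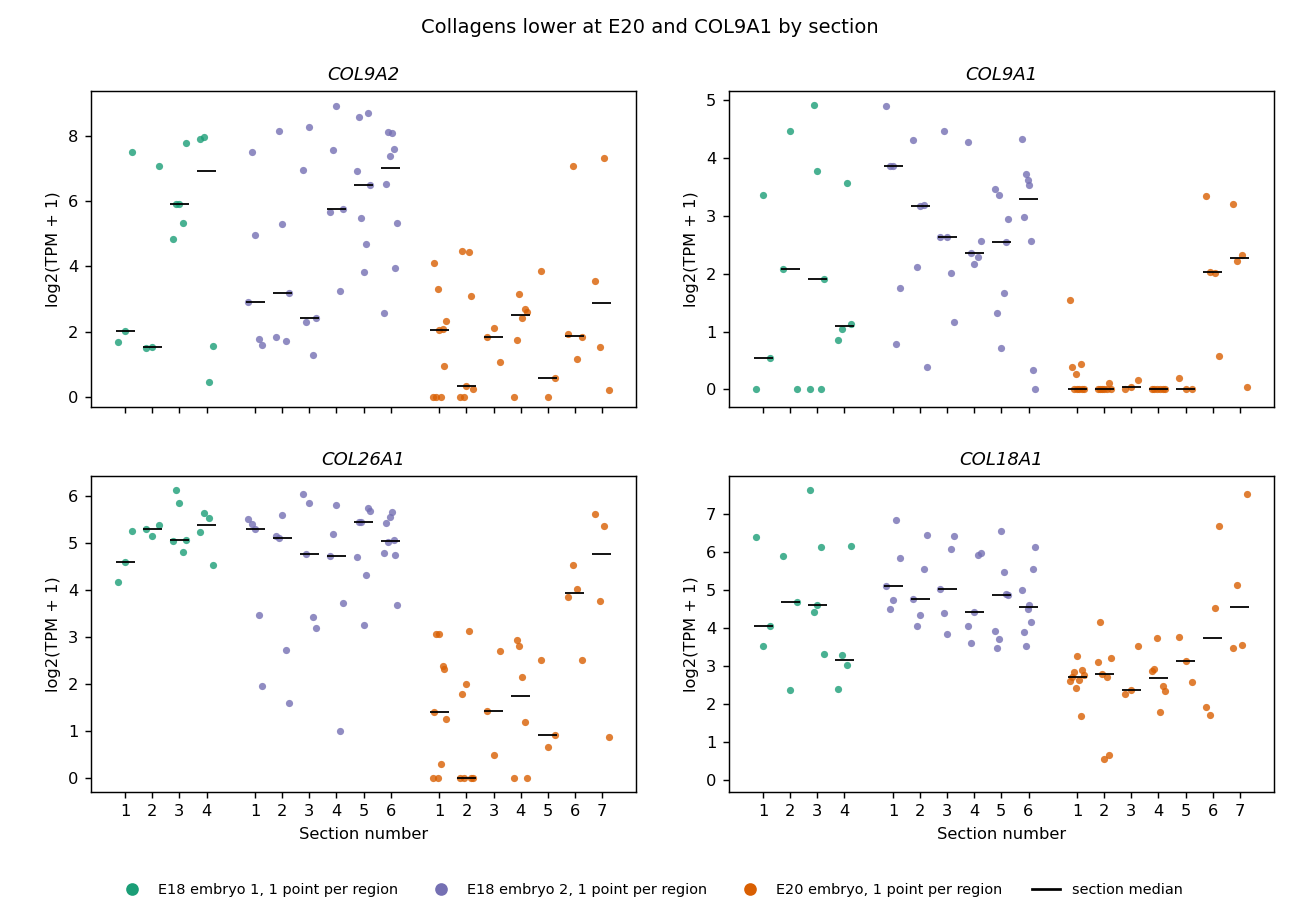
log2(TPM + 1) of COL9A2, COL9A1, COL26A1 and COL18A1 in each region (points) by section number, with the section median as a line. COL9A1 is at 0 in most regions of E20 sections 1 to 5 and between 0.0335 and 9.17 TPM in sections 6 and 7, and COL26A1 has medians of 14.3 and 26.4 TPM there.

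Section numbers were put on a scale of 0 to 1 within each embryo, so that a slope is the change over the whole run of sections. COL9A2 rose by 2.02 ± 0.66 log2 units (SE, 86 regions, limma with embryo as a block, adjusted p = 0.033) and COL26A1 by 1.41 ± 0.38 (0.0103). These were 2 of 39 collagens, both higher, against 10.7% of all genes tested (8.81% higher, 1.89% lower). Regions of an embryo are not independent, so this p and those of the other tests on single regions are too small. Both slopes were positive in 3 of 3 embryos, at 1.45, 2.94 and 1.36 for COL9A2 and 0.52, 0.83 and 2.38 for COL26A1. No collagen was called by limma without the E20 embryo, with section means, with the number of detected genes as a covariate, or when the E20 sections were split into 1 to 5 and 6 to 7 as 2 blocks. Over all genes tested these settings called 9, 27, 502 and 6 in that order, against 1628 in the test above. Without E18 embryo 2, COL9A2 was no longer called (1.39, adjusted p = 0.273). Quantile normalization moved the median section slope of all genes by -0.11. Over all sections and with no assumed trend, 0 of 39 collagens differed between sections by limma's F test, where 12% of genes did, and 1 had an unadjusted p under 0.05. The slope of COL18A1 differed between embryos (-0.58, -0.70 and 1.86, adjusted p = 0.0426), which was 1 of 39 against 10.1% of all genes. Most of the variation lay within sections: the median share over collagens tested was 21.5% between embryos, 9.3% between sections of an embryo and 69.7% within sections, with 19.01%, 14.5% and 65.1% over all genes.

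Along sector numbers, scaled in the same way within a section and with section as a block, 7 of 39 collagens passed, 6 higher and 1 lower, against 3.24% of all genes tested (2.48% higher, 0.762% lower). COL3A1 rose by 3.63 ± 0.94 (SE, adjusted p = 0.0197), COL1A2 by 2.75 ± 0.74 (0.0259), COL6A3 by 2.51 ± 0.59 (0.00999), COL5A2 by 2.20 ± 0.61 (0.0301), COL7A1 by 1.36 ± 0.32 (0.00975) and COL6A6 by 0.63 ± 0.19 (0.0415), while COL9A1 fell by 1.30 ± 0.34 (0.0217). Embryos did not share this order. The COL3A1 slope was -0.48 and 7.60 in the first and second E18 embryo and 1.98 at E20, and of the 6 genes that rose only COL6A6 had positive slopes in 3 of 3. The COL6A6 call was itself lost with the number of detected genes as a covariate (adjusted p = 0.0921), a pseudocount of 0.1 (0.0999), quantile normalization (0.39) and unscaled sector numbers (0.109). Leaving out E18 embryo 2 ended all 7 calls, leaving out the E20 embryo left 4, and leaving out E18 embryo 1 raised the count to 18. The number of detected genes as a covariate gave 11 (8 higher, 3 lower), where 579 of all genes passed. Whether sectors of the 3 embryos are numbered from the same side is not stated.

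Since the labels name no tissue, each region was given scores from marker genes that include no collagen. A score is the mean of the markers' log2 values, each brought to mean 0 and SD 1 within an embryo, and a slope is the change in log2(TPM + 1) per unit of score with embryo as a block. On the score of 11 mesenchyme markers without matrix genes (transcription factors such as FOXF1, HAND2 and TWIST1, with PDGFRB and VIM), 25 of 39 collagens passed, 19 higher and 6 lower, against 23.4% of all genes tested (14.2% higher, 9.27% lower). The median slope was 0.32 over collagens and -0.0041 over all genes. COL3A1 had the steepest slope of the collagens, 4.05 ± 0.27 (SE, 86 regions, adjusted p = 1.75e-23), and its slope was 4.08, 4.00 and 4.12 in the 3 embryos. COL1A2 followed with 3.12 ± 0.21, COL5A2 with 2.53 ± 0.17, COL1A1 with 2.49 ± 0.18, COL6A1 with 2.46 ± 0.18, COL6A3 with 2.39 ± 0.19, COL21A1 with 2.18 ± 0.20 and COL6A2 with 2.15 ± 0.14.

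By class, 6 of 8 fibrillar genes were higher with the mesenchyme score and 1, COL5A3, was lower (-0.57 ± 0.07). Of 8 basement membrane genes tested 5 were higher, among them COL4A1 (1.51 ± 0.11), COL4A2 (1.28 ± 0.11) and COL18A1 (1.03 ± 0.15). The cartilage-type class was split, with COL11A1 higher (0.99 ± 0.18) and COL9A1 (-1.12 ± 0.15), COL9A2 (-0.97 ± 0.32) and COL11A2 (-0.40 ± 0.09) lower. In the other class 7 of 17 were higher, and COL26A1 (-0.88 ± 0.18) and COL25A1 (-0.50 ± 0.15) were lower. Without E18 embryo 2 the COL25A1 slope was -0.057 (adjusted p = 0.909) and the COL26A1 slope -0.83 (0.0521), and COL7A1 (0.16, 0.65), COL14A1 (0.20, 0.563), COL6A6 (0.14, 0.549) and COL27A1 (0.58, 0.0743) were not called either. The COL9A2 call was lost without E18 embryo 2 (-0.76, adjusted p = 0.343), without the E20 embryo (-0.92, 0.102), with a pseudocount of 0.1 (-1.09, 0.0576) and with a score from matrix genes (-0.86, 0.0827). COL4A5 and COL16A1 were not called without E18 embryo 1 (adjusted p = 0.13 and 0.225) or without the E20 embryo (0.0623 and 0.0827), and COL27A1 was not called without E18 embryo 1 (0.1003). Of the 19 genes higher, 17 had positive slopes in 3 of 3 embryos, the exceptions being COL14A1 and COL6A6, and 5 of the 6 lower had negative slopes in 3 of 3. With section within embryo as a block, which compares sectors of 1 section only, 25 collagens passed and all 25 were those above.

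The slopes of COL8A2 on this score differed between embryos (-0.10, -0.11 and 2.14, adjusted p = 0.00099), as did those of COL14A1 (0.72, 0.90 and -0.20, 0.0266). These 2 of 39 compare with 0.841% of all genes. The COL14A1 call was lost with a pseudocount of 0.1 and after quantile normalization (adjusted p = 0.5506 and 0.2665).

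**Figure D5:**
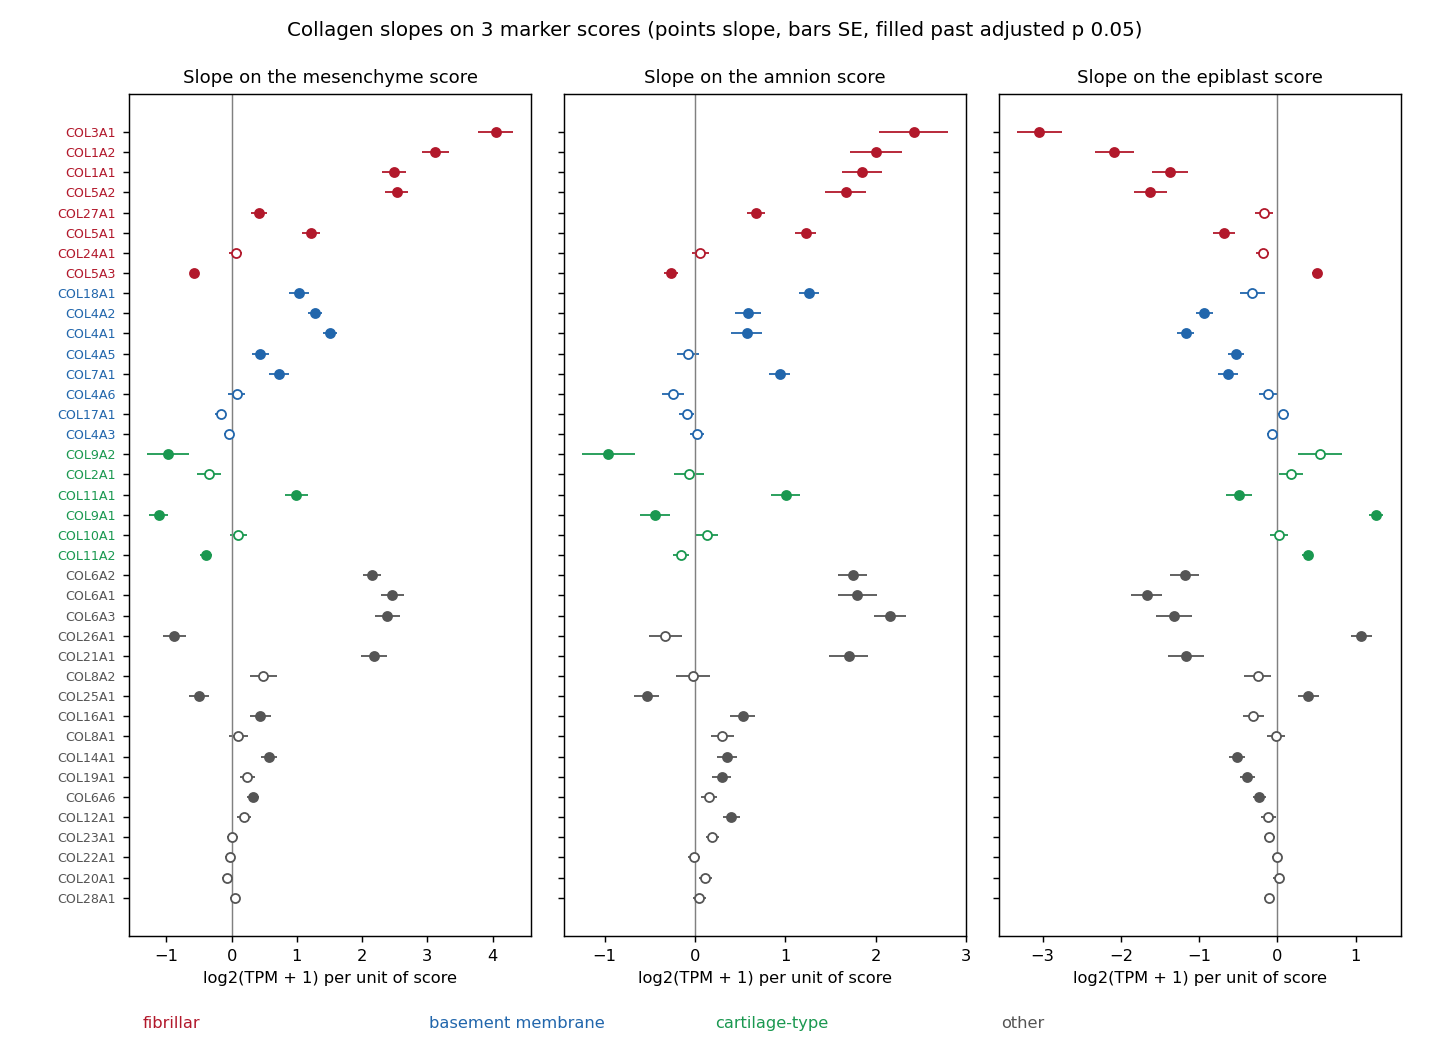
Slopes of log2(TPM + 1) on the mesenchyme, amnion and epiblast scores for 39 collagens (points, coloured by class; bars are SE over 86 regions; filled points have an adjusted p under 0.05). COL3A1, COL1A2, COL6A1 and COL6A3 lie to the right on the first pair of scores and to the left on the epiblast score, with COL5A3, COL9A1 and COL25A1 on the other side.

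The epiblast score gave nearly the reverse picture. COL9A1 (1.26 ± 0.09, adjusted p = 6.43e-21), COL26A1 (1.07 ± 0.13), COL5A3 (0.50 ± 0.06), COL11A2 (0.39 ± 0.08) and COL25A1 (0.39 ± 0.13) were higher with it and 17 collagens were lower, led by COL3A1 (-3.04 ± 0.29), COL1A2 (-2.08 ± 0.25) and COL6A1 (-1.67 ± 0.20). These 22 of 39 compare with 38.0% of all genes tested (24.2% higher, 13.8% lower). COL9A1 had the same sign in each embryo, with slopes of 2.09, 1.19 and 1.03. Of the 17 lower genes 14 had negative slopes in 3 of 3 embryos. The exceptions, COL5A1 (0.15), COL6A2 (0.065) and COL6A3 (0.28), had positive slopes at E20. Of the 5 higher genes 4 had positive slopes in 3 of 3, COL25A1 being the exception. The count fell to 11 without E18 embryo 2, where 4586 of all genes passed, against 5780 in the test above. In that setting COL25A1 (0.0698, adjusted p = 0.781), COL1A1 (-0.74, 0.0857), COL6A2 (-0.42, 0.24) and COL6A3 (-0.23, 0.599) were among those not called. COL25A1 also lost its call after quantile normalization (0.25, 0.152) and had a slope of -0.02 at E20. The mesenchyme and epiblast scores are opposed in the E18 embryos (Pearson's r of -0.78 and -0.86 across regions, and -0.29 at E20).

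On the score of 10 amnion markers (ISL1, GABRP and TFAP2A among them), 23 collagens passed, 19 higher and 4 lower, against 18.9% of all genes tested (13.4% higher, 5.57% lower). COL3A1 (2.42 ± 0.38), COL6A3 (2.15 ± 0.18), COL1A2 (2.00 ± 0.29), COL1A1 (1.85 ± 0.22) and COL6A1 (1.79 ± 0.22) led, and COL9A2 was lowest (-0.96 ± 0.29). COL18A1 rose by 1.26 ± 0.11 (adjusted p = 1.47e-16), with 1.69, 1.15 and 1.23 in the 3 embryos. The COL3A1 slope was 4.19, 4.82 and 0.22, so the pooled value rests on the E18 embryos, in which the amnion and mesenchyme scores correlate (r of 0.63 and 0.81, against 0.29 at E20). Of the 19 higher genes 16 had positive slopes in 3 of 3 embryos, the exceptions being COL14A1, COL19A1 and COL4A1. Of the 4 lower genes 2 had negative slopes in 3 of 3, the exceptions being COL5A3 and COL9A1. Without E18 embryo 2 the count was 13, all higher, where 2045 of all genes passed, against 2880 in the test above. In that setting COL3A1 (1.07, adjusted p = 0.175), COL1A2 (1.10, 0.0538) and COL9A2 (-0.43, 0.519) were not called.

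The yolk sac endoderm score, which is highest where apolipoprotein and albumin-family serum genes are, touched few collagens: COL4A1 (0.47 ± 0.18, adjusted p = 0.041) and COL4A5 (0.39 ± 0.12, 0.0126) were higher and COL18A1 (-0.63 ± 0.17, 0.00292) and COL9A1 (-0.63 ± 0.17, 0.00323) lower. These 4 of 39 compare with 24.9% of all genes tested (7.54% higher, 17.3% lower). With mitochondrially encoded genes removed the split was 1 higher and 3 lower. None of the 4 passed without the E20 embryo or with section as a block, where 22 and 159 of all genes passed, against 3786 in the test above. The slopes of COL4A1 and COL4A5 were negative in E18 embryo 2 (-0.46 and -0.03). By limma's F test 0 collagens differed in this slope between embryos (2 at an unadjusted p under 0.05), where 5.13% of genes did.

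The 4 scores were then put into 1 model. In it 11 collagens kept or gained a mesenchyme slope (10 higher, 1 lower) and 16 an amnion slope, all higher. For the epiblast score the count was 12 (3 higher, 9 lower), and for the yolk sac endoderm score it was 0. The lower mesenchyme slope was that of COL23A1 (-0.44 ± 0.13), which had no call on that score by itself. Over all genes tested this model called 1686, 1783, 2270 and 186 in that order. So few of all genes had a yolk sac endoderm slope in it that the 0 does not set collagens apart. COL3A1 kept 2.32 ± 0.36 on the mesenchyme score and 1.04 ± 0.28 on the amnion score, with -1.44 ± 0.32 on the epiblast score. COL4A1 (1.26 ± 0.16) and COL4A2 (0.99 ± 0.17) kept the mesenchyme slope and had no amnion call. The reverse held for COL18A1 (amnion 0.93 ± 0.14), COL5A1 (0.84 ± 0.13), COL7A1 (0.91 ± 0.14) and COL27A1 (0.70 ± 0.14), which had no mesenchyme call. COL9A1 (1.07 ± 0.16), COL26A1 (1.12 ± 0.22) and COL5A3 (0.33 ± 0.09) kept the epiblast slope alone.

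The genes outside the collagens whose log2 values most resembled those of COL3A1 were POSTN, LUM, IGFBP3, DCN and TGFBI, with a mean within-embryo Pearson's r from 0.94 to 0.96 over the 3 embryos. POSTN, LUM, DCN and TGFBI encode matrix proteins, and IGFBP3 encodes a secreted growth factor binding protein. Those matrix genes are also in the list behind the alternative mesenchyme score from matrix genes. The collagens nearest to COL3A1 were COL1A2 and COL5A2 (both 0.95) and COL1A1 (0.89). COL4A1 was most like VIM, FOSL2, HAPLN1, NID2 and SPARC (0.83 to 0.88), of which VIM is in the mesenchyme marker list. COL18A1 was most like UPK2, GABRP, SPNS2, KCNMA1 and HAND2 (0.76 to 0.81), of which GABRP and HAND2 are in the marker lists used for scores. COL2A1 had no close match: TSPAN7 came nearest at 0.56 and the nearest collagen, COL11A2, at 0.30. These are correlations across 15, 35 and 36 regions that share embryos and sections.

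Genes that make, process, bind and break down collagen were followed in 4 lists. Of 25 tested genes for modification, folding and secretion, 12 were higher with the mesenchyme score and none lower (limma; 17 had an unadjusted p under 0.05), led by CREB3L1, a transcription factor for collagen genes (1.79 ± 0.20), P3H2, a prolyl hydroxylase (1.41 ± 0.15), and FKBP7, a folding enzyme (1.14 ± 0.19). SERPINH1, the collagen chaperone, was higher too (0.68 ± 0.09). Of 14 cleavage and crosslinking genes 7 were higher and none lower (9 unadjusted), led by PCOLCE, which enhances procollagen cleavage (1.52 ± 0.18), and the lysyl oxidases LOX (0.90 ± 0.21) and LOXL2 (0.80 ± 0.16). Of 10 receptors 7 were higher and none lower (8 unadjusted), led by DDR2, a receptor for fibrillar collagen (1.85 ± 0.16), ITGA1 (1.62 ± 0.18) and ITGB1 (0.68 ± 0.16). Of 14 genes for breakdown and its inhibition 7 were higher, led by TIMP1 (1.82 ± 0.16), MMP2 (1.24 ± 0.16) and TIMP3 (0.97 ± 0.17), and TIMP4 was lower (-0.43 ± 0.17). Over all genes tested 14.2% were higher with this score and 9.27% lower. Median slopes were 0.41, 0.48, 0.55 and 0.28 in this order, against -0.0041 over all genes.

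At E20, LOX was the only gene of the 4 lists that was higher than at E18 (3.17 ± 0.68, adjusted p = 0.0001234). FKBP10 (-2.50 ± 0.44), COLGALT1 (-2.06 ± 0.74) and P3H3 (-1.58 ± 0.50) of the modification list were lower, as were PCOLCE2 (-2.58 ± 0.48), PXDN (-1.84 ± 0.59), FURIN (-1.61 ± 0.49), the receptor DDR1 (-1.82 ± 0.49) and MMP15 (-1.60 ± 0.55). By list that is 3 of 25, 3 of 14, 1 of 10 and 1 of 14 genes lower, against 8.75% of all genes lower and 2.64% higher. On the epiblast score 16 of 25 modification genes were lower and none higher, led by PLOD2 (-1.01 ± 0.13), CREB3L1 (-0.98 ± 0.21) and P3H2 (-0.93 ± 0.15), with 4 lower and 1 higher, 5 lower and none higher, and 5 lower and 1 higher in the other lists, against 13.8% of all genes lower and 24.2% higher. On the amnion score 8, 5, 6 and 5 genes were higher and none lower (limma; 13, 6, 7 and 7 at an unadjusted p under 0.05), against 13.4% higher and 5.57% lower over all genes. On the yolk sac endoderm score 7 of 25 modification genes were higher and 3 lower (7.54% and 17.3% of all genes). The higher ones were led by PLOD2 (0.71 ± 0.17), P4HA1 (0.50 ± 0.10) and PPIB (0.44 ± 0.10), while no fibrillar collagen passed. The P4HA1 slope on this score differed between embryos (limma's F test, adjusted p = 0.00187). Over all genes tested the score called 3786, but 22 without the E20 embryo and 159 with section as a block. Along sectors 3 of 25, 2 of 14, 2 of 10 and 0 of 14 genes were higher (limma; 2 of the last list at an unadjusted p under 0.05), against 2.48% of all genes, led by FKBP7 (1.56 ± 0.43), ADAMTS2 (1.22 ± 0.27) and ITGB1 (1.18 ± 0.33). Without E18 embryo 2 the sector test called 0 genes of any kind. Along sections 2 of 25, 4 of 14, 2 of 10 and 1 of 14 were higher, against 8.81% of all genes, so that the first and last of these counts are near that share. Without the E20 embryo 9 of all genes tested passed along sections.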

How the data were processed

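The deposited values are TPM per gene in 86 regions, computed by the authors from reads that passed through fastp, HISAT2 and StringTie, per the submitters' processing notes. For these tools no version is known, and of the build or annotation nothing is stated (not given in the sources used here). Coordinates and sequences are therefore left out. All 41 symbols in the table matched RefSeq (T2T-MFA8v1.1), used for names and neighbours only. TPM keeps no counts, so depth is unknown, and no intervals or floors are given.

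Genes at 1 TPM or more in at least 10 regions were tested as log2(TPM + 1) with limma 3.58.1 in R 4.3.3 (eBayes with a trend), with Benjamini-Hochberg adjustment over 15216 genes at 0.05. Stage used embryo means (3 embryos, 1 residual degree of freedom). Section and score slopes used 86 regions with embryo as a block, and sector slopes with section as a block. Fold changes on this scale understate changes of low genes. The models were tested on simulated data. Tables and pictures used numpy 2.4.6, pandas 2.3.3 and matplotlib 3.10.9.

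Labelled replicates are embryos, and no label says how they were processed relative to each other. All collagens could be named, with section values for those at a mean of 20 TPM or more or called. From the pathway lists the 3 largest called effects in each direction were eligible, and from likeness 5 genes. SERPINH1 was added after its value was seen. The members, lists and tests were chosen with earlier results of these data known. Alternatives were other pseudocounts, filters, scalings, summaries, covariates and blocks, a second mesenchyme list, joint scores and each embryo left out. Those that split the E20 sections or block on section were chosen after seeing the data.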

Additional observations from a re-analysis of the deposited data

Results flagged for a closer look

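Slopes that differed between the 3 embryos, by limma's moderated F test over regions, are listed here. Along sections, slopes differed for COL18A1 (adjusted p = 0.0426). Of the genes that make or handle collagen, FKBP10 (0.00807), LOX (0.00295), MRC2 (0.0357) and P4HA1 (0.00538) differed along sections too. On the mesenchyme score, slopes differed for COL8A2 (0.00099), COL14A1 (0.0266) and FURIN (0.0432). On the yolk sac endoderm score, slopes differed for MMP1 (0.00144), MMP15 (0.00487), MRC2 (0.01003) and P4HA1 (0.00187), and for no collagen. Each rests on 1 embryo per slope.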

How the results depend on the processing

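Of 99 counts of called collagens under an alternative, 70 stayed within 1.5 times the reported count and 29 did not. For the stage (6 collagens), medians over regions and E20 sections 6 and 7 alone each gave 0. Along sections (2), the covariate for detected genes, section means and split E20 blocks each gave 0. Section slopes differing between embryos (1) became 2 after quantile normalization, neither of them the reported gene, and 0 with the covariate, and sections differing (0) became 1 after quantile normalization and 1 with mitochondrially encoded genes removed. Along sectors (7), the covariate gave 11 and unscaled sector numbers 4. With the 4 scores in 1 model, the mesenchyme count went from 25 to 11, the epiblast count from 22 to 12 and the yolk sac endoderm count from 4 to 0. That last count was also 2 with the covariate and 0 with section as a block. Over all genes tested, the model of 4 scores took these 3 counts from 3567 to 1686, from 5780 to 2270 and from 3786 to 186. Mesenchyme slopes differing between embryos (2) numbered 1 with a pseudocount of 0.1, 1 with the stricter filter (20 or more regions at 5 TPM, which tests 20 collagens) and 4 after quantile normalization. Yolk sac endoderm slopes differing (0) numbered 1 with that filter and 1 after quantile normalization.

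Leaving out each embryo in turn gave from 0 to 3 collagens along sections, from 0 to 18 along sectors, from 20 to 23 for the mesenchyme score, from 0 to 6 for the yolk sac endoderm score, from 11 to 25 for the epiblast score and from 13 to 24 for the amnion score. No stage test remains without an embryo of E18 or E20. Of 979 single-gene values, 823 kept direction and call, 151 kept direction without the call and 5 reversed, each in the model of 4 scores: COL16A1 (-0.12), COL25A1 (0.0698), COL27A1 (-0.094) and COL7A1 (-0.50) on the mesenchyme score and COL4A1 (-0.0861) on the amnion score. The cause was not tested. No paired analysis was possible because E18 and E20 embryos share only 1 replicate number and are different animals. Read depth behind the TPM values is unknown, so low values carry an error that cannot be stated.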
